A study of Mus musculus with 12 samples.

Results

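Pyruvate entry and the tricarboxylic acid cycle were examined through 33 genes out of the 40384 gene IDs of the deposited table. The genes were chosen by name for their known roles: import of pyruvate into mitochondria, the pyruvate dehydrogenase complex with its kinases and phosphatases, pyruvate carboxylase, the enzymes of the cycle, and the enzymes that draw on citrate and malate. No measured value was a criterion, but earlier results of these data were known when the genes were chosen. Each of the 33 symbols matched 1 ID through the GENCODE M21 annotation, and all 33 passed the filter for testing, which asked for at least 1 FPKM (fragments per kilobase of exon, scaled to the counted fragments of the library) in at least 3 of 12 libraries. Of these, 32 reached 1 FPKM in all 12 libraries. Me3 passed through the 6 day 4 libraries alone, where it is high, so counts are also given over the other 32. Succinate dehydrogenase, whose subunits also serve the respiratory chain, was not among the 33 and is described with the related genes.

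The study followed the reprogramming of mouse 4F2A cells with polyadenylated RNA sequencing, in 4 groups of n = 3 libraries. The iPSC group holds induced pluripotent stem cells, with iPSC cell as the source label. D4_DUX is day 4 of reprogramming with the treatment label OE-DUX and 48 h of overexpression, D4 is day 4 with the control label OE-NC, and MEF is the embryonic fibroblasts at the start. The D4_DUX, D4 and MEF libraries have 4F2A cell as their source, a line that carries doxycycline-inducible transgenes for Oct4 (Pou5f1), Sox2, Klf4 and Myc. The fibroblasts were taken from male mid-gestation embryos homozygous for 4F2A, per the labels' protocols. One growth text is attached to every sample: its medium held sodium pyruvate, L-glutamine, LIF and doxycycline at 2 μg/mL. Going by this shared text alone, pyruvate was supplied from outside in all groups. It lists doxycycline for MEF too, where Pou5f1 was at 0 FPKM, and whether it describes the MEF culture could not be checked. The labels give no clone, passage or feeder layer for the iPSC libraries, and they do not say whether the 3 libraries of a group came from separate cultures, so p-values measure only the spread between these libraries.

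Pyruvate, the end product of glycolysis, is carried into mitochondria and oxidised to acetyl-CoA by the pyruvate dehydrogenase complex. Kinases switch the complex off by phosphorylating its alpha subunit and phosphatases switch it on again. Acetyl-CoA joins oxaloacetate as citrate, which the cycle oxidises stepwise through 2-oxoglutarate, succinate, fumarate and malate back to oxaloacetate. Citrate that leaves the mitochondrion is split by ATP citrate lyase into acetyl-CoA for lipids and histone acetylation, and NADP-dependent isocitrate dehydrogenases and malic enzymes make NADPH from isocitrate and malate. Pluripotent cells are known for a high rate of glycolysis, and reprogramming is known for a change in the balance between pyruvate oxidation and lactate production.

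Depth was estimated at about 22500000 to 28090000 counted fragments per library, from the steps of the deposited values. Duxf3, the annotated Dux gene, stood at 0 FPKM in each of the 3 libraries with the label D4_DUX, at 0.00741, 0.00747 and 0 FPKM in D4, and at 0.0247 FPKM or less in the other groups. A floor of 3 fragments is 0.0396 to 0.0494 FPKM for this gene, so the label of Dux overexpression could not be checked from it, and directions below are those of the libraries labelled D4_DUX. Pou5f1, a pluripotency factor and a transgene here, was listed at 0 FPKM in all 3 MEF libraries and averaged 72.3 ± 1.04 FPKM in D4_DUX, 51.6 ± 6.0 in D4 and 210.0 ± 10.8 in iPSC. Nanog, a pluripotency factor outside the transgenes, was at 99.2, 111 and 127 FPKM in iPSC and at most 0.327 FPKM in any other library. Col1a1, the main collagen of fibroblasts, was at 221, 184 and 147 FPKM in iPSC, against 3049, 3083 and 3009 in MEF.

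The set did not move as a block. A gene was called where limma's test on log2(FPKM + 1), fitted over all 17114 genes tested and adjusted by Benjamini-Hochberg, gave an adjusted p under 0.05, and log2 fold changes below are on that scale with the SE of the fit. In D4 against MEF, 22 of the 33 genes were higher and 8 lower (21 and 8 of 32 without Me3), which is 90.9% called beside 61.8% of all genes tested (34.2% higher and 27.6% lower). The median log2 fold change was 0.29 over the 33 and 0.25 without Me3, beside 0.026 over all genes tested. In the libraries labelled D4_DUX against D4, 1 gene was higher and 7 were lower, 24.2% called beside 35.4% of all genes (20.1% higher and 15.4% lower). None of these 8 reached an absolute log2 fold change of 0.5, which 6.09% of all genes did. Called changes of at least 0.5 were found, without Me3, for 10 of 32 in D4 against MEF, 14 in iPSC against MEF and 10 in iPSC against D4, beside 26.2%, 55.3% and 56.3% of all genes. In iPSC against MEF, 16 were higher and 12 lower (16 and 11 without Me3), 84.8% called beside 82.2% (51% higher and 31.2% lower). In iPSC against D4, 10 were higher and 19 lower (10 and 18 without Me3), 87.9% called beside 82.4% (48.5% higher and 33.9% lower). A share near that of all genes, as in both iPSC comparisons, is no result about these genes, and there the direction and size of single genes carry the description. The comparisons share groups and their calls are not independent of each other.

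The split between higher and lower in iPSC against MEF depended on how libraries were scaled. Without further scaling the median of all genes lay at 0.21 on the log2 scale in iPSC against MEF and at 0.16 in iPSC against D4. Under median-ratio scaling these medians were 0.038 and 0.036, and under quantile normalization -0.068 and -0.074. With either scaling, 12 of the 33 genes were higher and 18 lower in iPSC against MEF, in place of 16 and 12. Small changes in the iPSC comparisons therefore depended on the scaling, with calls lost up to a log2 fold change of 0.32 (Dlat in iPSC against MEF), and the genes whose call or sign did so are named where they are described.

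**Figure D1:**
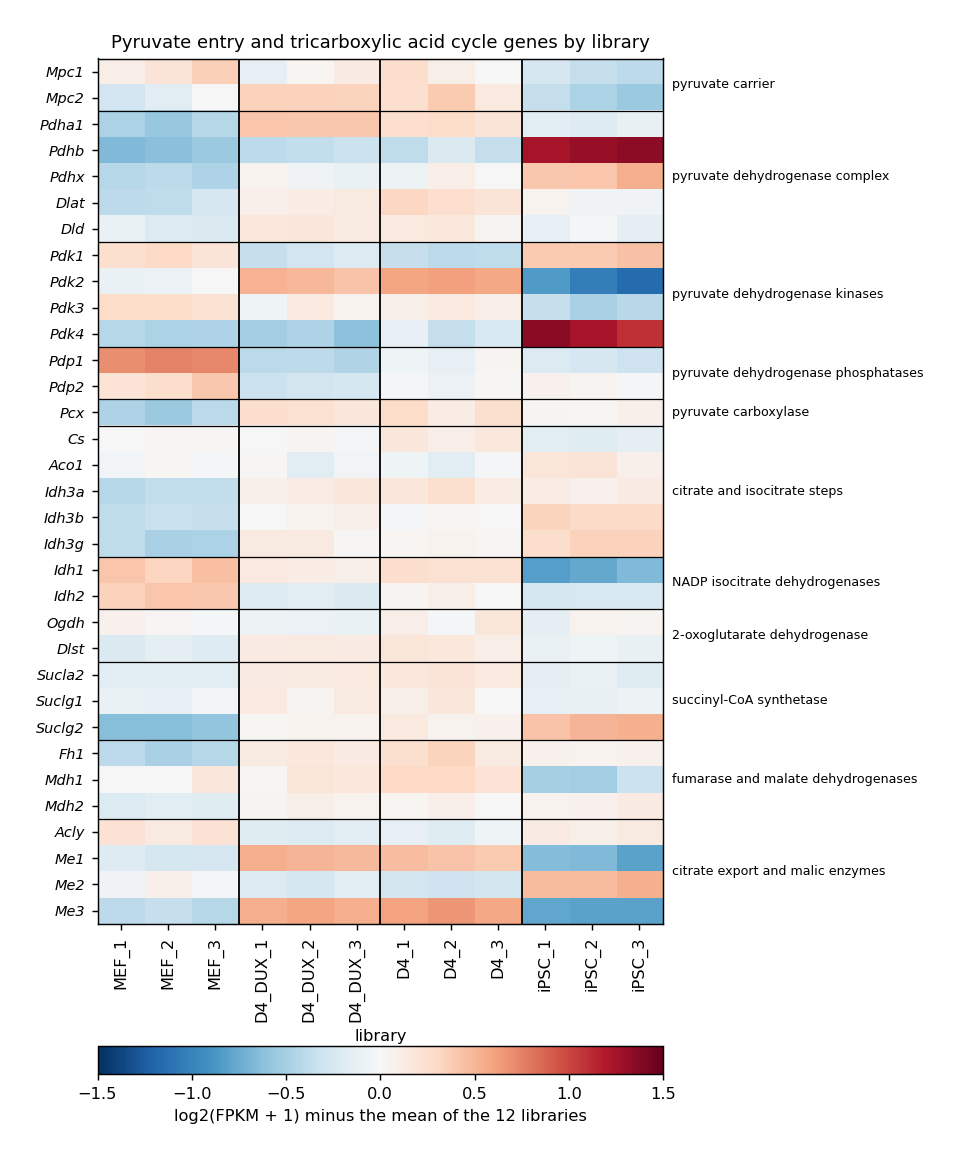
Level of each of the 33 genes in each of the 12 libraries, as log2(FPKM + 1) minus the gene's mean over the libraries (colour, log2 units), with genes in rows by role and libraries in columns. Pdhb, Pdk4 and Suclg2 are highest in the 3 iPSC columns, Pdk2, Idh1, Me1 and Me3 lowest there, and Pdp1 is highest in the 3 MEF columns.

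Markers of other cell types moved along with the groups. Summed FPKM of 16 macrophage markers was 1645 to 1691 in MEF, 50.6 to 52.6 in D4_DUX, 197 to 234 in D4 and 180.2 to 221 in iPSC, with 16 of 16 lower in D4_DUX against D4 and in D4 against MEF, 15 lower and 1 higher in iPSC against MEF, and 9 lower and 4 higher in iPSC against D4 (10 and 3 under median-ratio scaling, 12 and 2 under quantile normalization). None of the 16 was at 0 in all libraries of a group, and Lyz2, the lysozyme of macrophages, was at 30.6, 30.0 and 32.4 FPKM in D4_DUX, against 148, 164 and 135 in D4. Summed FPKM of 10 fibroblast markers was 6676 to 6869 in MEF, 2813 to 2893 in D4_DUX, 3622 to 3763 in D4 and 1082 to 1350.2 in iPSC, with 6 of 10 lower and 0 higher in D4_DUX against D4, 8 lower and 2 higher (Dcn and Thy1) in D4 against MEF, 9 lower and 1 higher in iPSC against MEF, and 8 lower and 0 higher in iPSC against D4. The 1 higher in iPSC against MEF was Dcn, a matrix proteoglycan, at 212, 226 and 194 FPKM in iPSC, against 196, 176 and 186 in MEF, with overlap and with a sign that turned under median-ratio scaling. Summed FPKM of 8 proliferation markers was 228 to 230.1 in MEF, 119.6 to 123 in D4_DUX, 143 to 146 in D4 and 488 to 498 in iPSC, and 7 of 8 were lower in D4_DUX against D4. The 10 pluripotency markers summed to 0.181 to 0.535 in MEF, 72 to 74 in D4_DUX, 46.4 to 58.6 in D4 and 1509 to 1673 in iPSC, with Pou5f1, Sall4 and Lin28a at 0 in every MEF library and Dppa5a and Dppa3 in every D4_DUX library. Of the 10, 9 were below 1 FPKM in every D4_DUX and D4 library, so the day 4 sums are mostly Pou5f1, a transgene here. Pou5f1 was the only 1 of the 10 called in D4 against MEF and in D4_DUX against D4. The 8 epithelial markers summed to 5.38 to 5.77 in MEF, 29.9 to 31.9 in D4_DUX, 12.7 to 13.4 in D4 and 156 to 172 in iPSC. The 7 adipocyte markers summed to 29.1 to 30.1 in MEF, 4.41 to 4.98 in D4_DUX, 6.65 to 7.12 in D4 and 6.14 to 7.83 in iPSC, with Adipoq at 0 in every MEF library and Lep at 0 in every D4_DUX and iPSC library. The 7 endothelial markers summed to 0.789 to 0.926 in MEF, 21.4 to 24.1 in D4_DUX, 15.1 to 15.3 in D4 and 27.8 to 28.5 in iPSC, with Emcn at 0 in every D4 library. Of the 7, 5 were below 1 FPKM in every D4_DUX, D4 and iPSC library, and 3 passed the filter. In iPSC against D4, Pecam1 was higher and Esam and Tek were lower. The 7 skeletal muscle markers summed to 8.86 to 10.1 in MEF, 14.9 to 15.6 in D4_DUX, 17.5 to 19.3 in D4 and 7.53 to 9.72 in iPSC, with Myod1 at 0 in every MEF, D4_DUX and D4 library and Mymk at 0 in every iPSC library. Of these 7, 5 were below 1 FPKM in every MEF, D4_DUX and D4 library. In bulk RNA, fewer cells of a type and less RNA per cell cannot be told apart. The part of these markers in the results on pyruvate and cycle genes was not tested.

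Promoter sequence is shown for the 3 genes with the highest log2 fold change in iPSC against MEF (Pdhb, Pdk4 and Suclg2) and for Pdha1, whose product pairs with that of Pdhb but whose transcript peaked at day 4. The 250 bases before each RefSeq start (build GRCm38.p6) were searched for the 30 of 33 genes found in the table of promoters. Idh3a, Me2 and Pdp1 were not matched. Printed here are the bases that lie upstream of both the RefSeq and the GENCODE start of the gene. They are chr14:8173026-8173242 (minus strand, 62.7% G or C) for Pdhb, chr6:5496310-5496528 (minus strand, 58.9% G or C) for Pdk4, chr6:95718847-95719096 (minus strand, 64.4% G or C) for Suclg2 and chrX:160138431-160138680 (minus strand, 61.6% G or C) for Pdha1, each read 5′ to 3′ along the gene's own strand, with motif matches on either strand in capitals.
Pdhb: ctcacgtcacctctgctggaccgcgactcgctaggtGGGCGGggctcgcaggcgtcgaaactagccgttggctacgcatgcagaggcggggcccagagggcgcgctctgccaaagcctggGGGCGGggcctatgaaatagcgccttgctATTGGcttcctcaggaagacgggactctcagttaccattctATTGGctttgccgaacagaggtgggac
Pdk4: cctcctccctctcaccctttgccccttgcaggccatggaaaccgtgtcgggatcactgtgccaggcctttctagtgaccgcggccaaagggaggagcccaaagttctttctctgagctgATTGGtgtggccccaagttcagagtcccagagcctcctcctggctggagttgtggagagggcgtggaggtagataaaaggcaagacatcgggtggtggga
Suclg2: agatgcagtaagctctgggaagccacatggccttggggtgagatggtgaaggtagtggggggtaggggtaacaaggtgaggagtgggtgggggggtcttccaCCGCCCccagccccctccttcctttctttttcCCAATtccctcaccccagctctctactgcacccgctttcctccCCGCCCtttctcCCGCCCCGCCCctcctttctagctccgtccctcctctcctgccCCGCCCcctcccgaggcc
Pdha1: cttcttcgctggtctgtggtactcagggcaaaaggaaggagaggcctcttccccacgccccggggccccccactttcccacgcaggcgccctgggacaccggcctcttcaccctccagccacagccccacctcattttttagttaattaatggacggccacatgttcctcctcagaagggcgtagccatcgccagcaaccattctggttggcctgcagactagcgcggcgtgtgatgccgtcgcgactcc
The capitals mark the GC box GGGCGG and the CCAAT box CCAAT, and no other motif searched had a match in these stretches. Pdhb held 2 GC boxes and 2 CCAAT boxes, Suclg2 5 GC boxes, 2 of them overlapping, and 1 CCAAT box, Pdk4 1 CCAAT box and Pdha1 neither. Over the 30 genes, 22 (73.3%) held a GC box in the 250 bases before a start, beside 35.4% of 27025 genes, and 18 (60%) held a CCAAT box, beside 37.5%. The E-box CACGTG was found for 4 of 30 (13.3%), beside 6.86% of genes. AAGGTCA, known as the core of sites for estrogen-related receptors, was found for 0 of 30 and for 4.7% of genes. The 27025 genes were taken whether or not they passed the filter for testing, which all 33 genes did. No share over the 17114 genes tested was computed, so a difference particular to these genes cannot be read from this. These are matches of letters, and a missing match says only that the letters are not in the window.

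Both genes of the mitochondrial pyruvate carrier were lower in iPSC than in D4 and MEF. Mpc1 and Mpc2 encode its subunits, which work as a pair. Mpc1 (ENSMUSG00000023861, chromosome 17, 8282904 to 8297661, plus strand) was at 5.91, 5.43 and 5.26 FPKM in iPSC, against 7.85, 8.39 and 9.54 in MEF and 8.92, 7.76 and 7.2 in D4. Its iPSC libraries lay below all libraries of both groups (log2 fold change -0.55, SE 0.089, adjusted p = 1.11e-04 against MEF and log2 fold change -0.45, SE 0.089, adjusted p = 5.28e-04 against D4). Mpc2 was at 1.98 ± 0.292 FPKM in MEF, 3.17 ± 0.0105 in D4_DUX, 2.96 ± 0.346 in D4 and 1.39 ± 0.168 in iPSC, higher in D4 against MEF (log2 fold change 0.41, SE 0.083, adjusted p = 0.00113) and lower in iPSC against D4 (log2 fold change -0.73, SE 0.083, adjusted p = 6.13e-06) and against MEF (log2 fold change -0.31, SE 0.083, adjusted p = 0.00431). Mpc1 was not called in D4 against MEF (log2 fold change -0.099, SE 0.089, adjusted p = 0.36). Neither gene was called in D4_DUX against D4 (-0.11 for Mpc1 and 0.079 for Mpc2 on the log2 scale). Exons of Mpc1 share 480 bases, 23.05% of its exon length, with the transcript 4930506C21Rik on the other strand, whose level was 5.0 FPKM in MEF, 4.12 in D4_DUX, 4.63 in D4 and 3.16 in iPSC, and the sources used here do not say whether counting was strand-aware.

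All 5 genes of the pyruvate dehydrogenase complex were higher in D4 than in MEF, and Pdhb was far higher again in iPSC. Pdha1 encodes the alpha and Pdhb the beta subunit of the decarboxylase E1, Dlat the acetyltransferase E2, Dld the dihydrolipoamide dehydrogenase E3, which other 2-oxoacid dehydrogenases share, and Pdhx the protein that holds E3 to the core. Pdhb (ENSMUSG00000021748, chromosome 14, 8165996 to 8173025, minus strand), whose promoter is shown above, was at 50.0, 52.9 and 53.9 FPKM in iPSC and 15.6, 15.8 and 16.4 in D4_DUX, against 15.6, 17.7 and 15.9 in D4 and 12.8, 13 and 13.8 in MEF. Every iPSC library lay far above the other 9, with log2 fold change 1.91, SE 0.050, adjusted p = 1.14e-11 against MEF and log2 fold change 1.61, SE 0.050, adjusted p = 4.02e-11 against D4. It was the highest log2 fold change among the 33 genes in both, on a scale where the added 1 shrinks changes of low-level genes. By ratio of mean FPKM, Pdhb stood at 3.96 over MEF and 3.18 over D4, below Pdk4 at 4.45 and 3.54. The difference of Pdhb in D4 against MEF was smaller (log2 fold change 0.30, SE 0.050, adjusted p = 2.91e-04), and D4_DUX and D4 overlapped. Pdhx was at 3.84 ± 0.12 FPKM in MEF, 5.38 ± 0.335 in D4_DUX, 5.54 ± 0.401 in D4 and 7.92 ± 0.489 in iPSC, where ± is the SD of n = 3 here and below. It was higher in D4 against MEF (log2 fold change 0.43, SE 0.059, adjusted p = 5.69e-05), in iPSC against MEF (log2 fold change 0.88, SE 0.059, adjusted p = 4.45e-08) and in iPSC against D4 (log2 fold change 0.45, SE 0.059, adjusted p = 2.15e-05). Gm6123, a gene with at least 95% identity to Pdhb over at least 300 aligned bases, was at 0.19 FPKM in MEF, 0.562 in D4_DUX, 0.778 in D4 and 0.982 in iPSC, small beside Pdhb in every group.

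Pdha1, which encodes the subunit that the kinases phosphorylate, was highest at day 4. Pdha1 (ENSMUSG00000031299, chromosome X, 160122209 to 160138413, minus strand) was at 81.2, 80.6 and 80.3 FPKM in D4_DUX, 72.3, 73.3 and 69.2 in D4 and 53.6, 52.8 and 55.9 in iPSC, against 43.2, 40.5 and 44.8 in MEF. The 4 groups did not overlap. It was higher in D4 against MEF (log2 fold change 0.73, SE 0.040, adjusted p = 2.36e-08), the single gene of the 33 called higher in D4_DUX against D4 (log2 fold change 0.17, SE 0.040, adjusted p = 0.00667), and lower in iPSC against D4 (log2 fold change -0.40, SE 0.040, adjusted p = 1.77e-06). It was higher in iPSC against MEF (log2 fold change 0.33, SE 0.040, adjusted p = 9.47e-06). The ratio of Pdha1 to Pdhb FPKM, genes whose products pair in E1, was 3.25 ± 0.143 in MEF, 5.07 ± 0.155 in D4_DUX, 4.37 ± 0.248 in D4 and 1.04 ± 0.0374 in iPSC. Both transcripts were thus near equal per length in iPSC and at least 3.10-fold apart in each library of the other groups. Pdha1 shares 603 exonic bases, 16.15% of its exon length, with Map3k15 on the other strand, whose level was 5.31 FPKM in MEF, 9.52 in D4_DUX, 8.94 in D4 and 8.27 in iPSC. Map3k15 followed the same order of groups as Pdha1, and its part in the Pdha1 result was not tested.

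Dlat averaged 19.4 ± 0.825 FPKM in D4, against 12.5 ± 0.743 in MEF (log2 fold change 0.60, SE 0.049, adjusted p = 8.13e-07). In D4_DUX it was at 17, 17.5 and 17.8 FPKM, against 20.2, 19.4 and 18.6 in D4, a small drop without overlap (log2 fold change -0.14, SE 0.049, adjusted p = 0.0398) whose call was lost in 7 of 15 alternative settings, among them leaving out D4 replicate 1 or 2 or any D4_DUX replicate, with an adjusted p up to 0.140. In iPSC it was lower than in D4 (log2 fold change -0.27, SE 0.049, adjusted p = 2.86e-04) and higher than in MEF (log2 fold change 0.32, SE 0.049, adjusted p = 6.76e-05), the last lost under quantile normalization. Dld was at 22.9 ± 1.11 FPKM in MEF, 29.1 ± 0.407 in D4_DUX, 28.3 ± 1.2 in D4 and 24.3 ± 1.15 in iPSC, higher in D4 against MEF (log2 fold change 0.29, SE 0.045, adjusted p = 1.68e-04) and lower in iPSC against D4 (log2 fold change -0.21, SE 0.045, adjusted p = 0.00111). Dld was not called in iPSC against MEF (log2 fold change 0.080, SE 0.045, adjusted p = 0.121), where it was called lower with libraries scaled by median ratio (adjusted p = 0.0182) or by quantile (adjusted p = 0.0104) and higher without MEF replicate 1 (adjusted p = 0.0354).

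**Figure D2:**
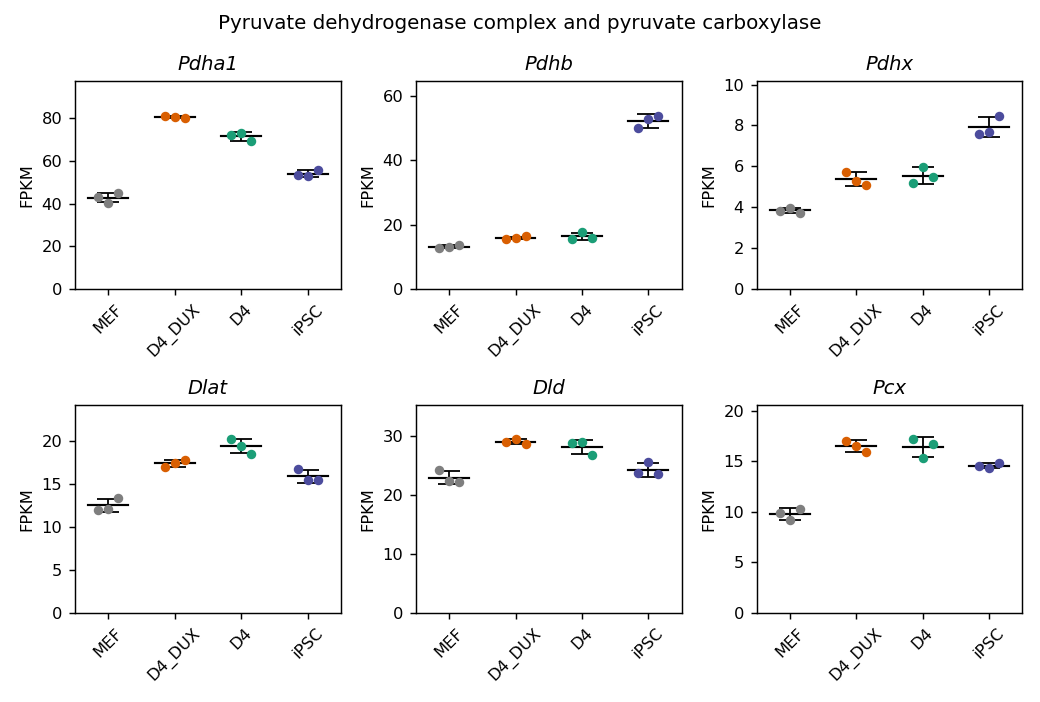
FPKM of the 5 genes of the pyruvate dehydrogenase complex and of Pcx in each library (points), with the mean and SD of n = 3 per group (bars), each panel starting at 0. Pdhb stands near 52.3 FPKM in iPSC, against 13.2 in MEF, whereas Pdha1 is highest in D4_DUX and D4.

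Transcripts of the 4 pyruvate dehydrogenase kinases kept a similar sum while their makeup changed. Summed Pdk1 to Pdk4 FPKM was 36.9 ± 0.672 in MEF, 32.5 ± 1.26 in D4_DUX, 33.9 ± 0.256 in D4 and 35.3 ± 1.34 in iPSC. Pdk3 was the largest of the 4 in MEF, D4_DUX and D4, and Pdk1 the largest in iPSC. Pdk4, an isozyme known for induction by fatty acids and fasting, was at 8.9, 8.1 and 7.3 FPKM in iPSC, against 2.54, 2.03 and 2.3 in D4 and 1.88, 1.78 and 1.8 in MEF (ENSMUSG00000019577, chromosome 6, 5483351 to 5496309, minus strand). Its iPSC libraries lay above all others, with log2 fold change 1.69, SE 0.075, adjusted p = 1.01e-09 against MEF and log2 fold change 1.47, SE 0.075, adjusted p = 3.32e-09 against D4. In D4_DUX it was at 1.7, 1.8 and 1.52 FPKM, below every D4 library (log2 fold change -0.30, SE 0.075, adjusted p = 0.00987). The higher level in D4 against MEF (log2 fold change 0.22, SE 0.075, adjusted p = 0.0239) was lost in 6 of 15 settings, among them leaving out MEF replicate 2 or 3 or D4 replicate 1 or 3, with an adjusted p up to 0.0995.

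Pdk2, a widely expressed isozyme, moved the other way. Pdk2 (ENSMUSG00000038967, chromosome 11, 95026258 to 95041354, minus strand) was at 2.34, 1.95 and 1.7 FPKM in iPSC, against 8.12, 8.26 and 7.99 in D4 and 4.63, 4.7 and 5.05 in MEF. The 3 groups did not overlap, and iPSC had log2 fold change -1.61, SE 0.068, adjusted p = 6.23e-10 against D4, the lowest of the 33 genes in that comparison, and log2 fold change -0.95, SE 0.068, adjusted p = 7.68e-08 against MEF. By ratio of mean FPKM in iPSC over D4, Me3 (0.0127) stood below Pdk2 (0.246). For Pdk2, D4 was higher than MEF (log2 fold change 0.66, SE 0.068, adjusted p = 5.75e-06). Pdk1, a kinase known as a target of hypoxia-inducible factor, was at 8.58, 8.22 and 8.31 FPKM in D4, against 13.4, 13.9 and 12.9 in MEF (ENSMUSG00000006494, chromosome 2, 71873224 to 71903858, plus strand; log2 fold change -0.62, SE 0.042, adjusted p = 1.66e-07). In iPSC it was at 15, 14.9 and 15.4 FPKM, above D4 (log2 fold change 0.78, SE 0.042, adjusted p = 6.08e-09). The small increase against MEF (log2 fold change 0.16, SE 0.042, adjusted p = 0.004) turned sign under median-ratio scaling and quantile normalization, with no call. Pdk3, the isozyme encoded on the X chromosome, was at 16.9 ± 0.371 FPKM in MEF, 14.4 ± 1.12 in D4_DUX, 15.1 ± 0.334 in D4 and 10.1 ± 0.543 in iPSC. It was lower in iPSC against MEF (log2 fold change -0.68, SE 0.053, adjusted p = 1.69e-07) and against D4 (log2 fold change -0.53, SE 0.053, adjusted p = 1.63e-06). In D4 against MEF its call (log2 fold change -0.15, SE 0.053, adjusted p = 0.0288) was lost in 5 of 15 settings, among them leaving out MEF replicate 1 or 2 or D4 replicate 1 or 3, with an adjusted p up to 0.0824.

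As shares of the summed kinase FPKM, Pdk4 made up 24.1, 23.4 and 21.1% in the iPSC libraries, against 7.45, 5.97 and 6.83% in D4 and 5.08, 4.75 and 4.98% in MEF. Pdk2 made up 5.64 ± 0.709% in iPSC, against 24 ± 0.278% in D4 and 13 ± 0.822% in MEF. Pdk1 made up 42.8 ± 2.04% in iPSC, against 24.7 ± 0.496% in D4 and 36.3 ± 0.787% in MEF (mean ± SD, n = 3). Pdk3 made up 28.7 ± 0.82% in iPSC, against 44.6 ± 1.01% in D4 and 45.7 ± 0.415% in MEF. In D4_DUX the 4 shares were 27.8 ± 1.41% for Pdk1, 22.9 ± 1.52% for Pdk2, 44.2 ± 1.73% for Pdk3 and 5.15 ± 0.416% for Pdk4. With 3 libraries against 3, an exact two-sided permutation test cannot go below p = 0.1, and each iPSC difference without overlap reached it (p = 0.12 after adjustment over the 36 share comparisons made). Shares use the deposited FPKM, which is per length, so a common scaling factor for a library does not change them. Pdk1, Pdk2 and Pdk3 were not called in D4_DUX against D4.

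Both phosphatase genes were lower in D4 than in MEF, and lower again in the libraries labelled D4_DUX. The phosphatases reactivate the complex, and Pdp1 encodes the calcium-stimulated catalytic subunit and Pdp2 the isoform without calcium stimulation. Pdp1 (ENSMUSG00000049225, chromosome 4, 11958184 to 11966452, minus strand) was at 1.56, 1.58 and 1.48 FPKM in D4_DUX, 2.26, 2.13 and 2.5 in D4 and 1.95, 1.86 and 1.73 in iPSC, against 4.49, 4.67 and 4.59 in MEF. No library of these groups overlapped with another group, and MEF was the highest. Pdp1 had the lowest log2 fold change of the 33 genes in D4_DUX against D4 (log2 fold change -0.37, SE 0.052, adjusted p = 3.08e-04) and in D4 against MEF (log2 fold change -0.76, SE 0.052, adjusted p = 1.71e-07). It was lower in iPSC against MEF (log2 fold change -0.97, SE 0.052, adjusted p = 5.92e-09) and against D4 (log2 fold change -0.21, SE 0.052, adjusted p = 0.00292). Pdp2 (ENSMUSG00000048371, chromosome 8, 104591451 to 104599026, plus strand) was at 1.13, 1.21 and 1.22 FPKM in D4_DUX, against 1.62, 1.5 and 1.7 in D4 and 2.07, 2.18 and 2.54 in MEF. It was lower in D4_DUX against D4 (log2 fold change -0.25, SE 0.060, adjusted p = 0.007), in D4 against MEF (log2 fold change -0.32, SE 0.060, adjusted p = 6.15e-04) and in iPSC against MEF (log2 fold change -0.27, SE 0.060, adjusted p = 0.00144), and was not called in iPSC against D4 (log2 fold change 0.055, SE 0.060, adjusted p = 0.405), where its sign turned under median-ratio scaling and it was called lower under quantile normalization (adjusted p = 0.00258). These levels are low, and the lowest fragment count behind any of the 33 genes other than Me3 was 127.9, for Pdk4 in 1 D4_DUX library.

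Summed Pdp1 and Pdp2 FPKM was 6.84 ± 0.286 in MEF, 2.73 ± 0.0519 in D4_DUX, 3.9 ± 0.283 in D4 and 3.55 ± 0.196 in iPSC. The ratio of summed kinase to summed phosphatase FPKM was 11.6, 12.1 and 12.1 in D4_DUX, against 8.79, 9.36 and 8.01 in D4. It was 9.9, 9.6 and 10.4 in iPSC, against 5.64, 5.47 and 5.07 in MEF. Each D4_DUX library lay above each D4 library and MEF lay below all other groups. The ratio is a description of transcripts and carries no test. Beside it, all 16 macrophage markers were lower in D4_DUX against D4 and in D4 against MEF, with the summed levels given above, and their part in the ratio was not tested.

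**Figure D3:**
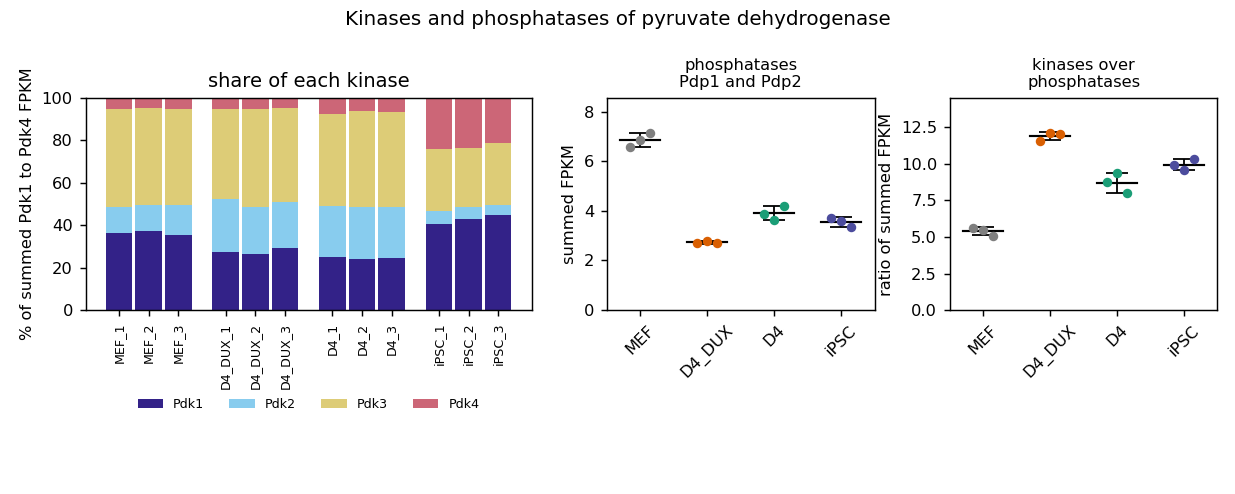
Left, share of each kinase in the summed FPKM of Pdk1 to Pdk4 (percent) per library; middle, summed FPKM of Pdp1 and Pdp2; right, ratio of summed kinase to summed phosphatase FPKM, as points per library with the mean and SD of n = 3. The Pdk4 share is 22.9% in iPSC, against 4.94% in MEF, and the ratio is highest in D4_DUX at 11.9.

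Pyruvate carboxylase, which makes oxaloacetate from pyruvate to refill the cycle, was higher in D4 and iPSC than in MEF. Pcx was at 9.77 ± 0.573 FPKM in MEF, 16.5 ± 0.552 in D4_DUX, 16.4 ± 0.986 in D4 and 14.5 ± 0.255 in iPSC. D4 against MEF had log2 fold change 0.69, SE 0.050, adjusted p = 2.77e-07, and iPSC against MEF had log2 fold change 0.53, SE 0.050, adjusted p = 1.07e-06. D4_DUX and D4 overlapped (log2 fold change 0.011, SE 0.050, adjusted p = 0.906), and the sign of this difference turned in 4 settings. The lower level in iPSC against D4 (log2 fold change -0.16, SE 0.050, adjusted p = 0.0111) was lost when D4 replicate 1 was left out (adjusted p = 0.0509).

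At the entry of the cycle, citrate synthase differed little between groups, and all 3 subunits of the NAD-dependent isocitrate dehydrogenase were higher in D4 and iPSC than in MEF. Cs, citrate synthase, was at 49.3, 50.4 and 47.9 FPKM in D4_DUX, against 55.1, 52.6 and 55 in D4, without overlap (log2 fold change -0.14, SE 0.030, adjusted p = 0.00445). It averaged 43.7 ± 0.492 FPKM in iPSC, against 49.4 ± 0.657 in MEF. D4 was above MEF by a small amount (log2 fold change 0.13, SE 0.030, adjusted p = 0.00242), a call lost under median-ratio scaling and quantile normalization, and iPSC was below D4 (log2 fold change -0.31, SE 0.030, adjusted p = 1.31e-06) and MEF (log2 fold change -0.18, SE 0.030, adjusted p = 1.71e-04). Aco1 encodes cytosolic aconitase, also an iron regulatory protein. Aco1 was at 13.7 FPKM in MEF, 13.2 in D4_DUX, 13.1 in D4 and 15.5 in iPSC and was called only in iPSC, higher against MEF (log2 fold change 0.16, adjusted p = 0.0124) and D4 (0.23, adjusted p = 0.00168). Both calls were lost under median-ratio scaling and quantile normalization, and the sign against MEF turned. Idh3a encodes the catalytic subunit and Idh3b and Idh3g the regulatory subunits of the NAD-dependent enzyme. Idh3a was at 9.84 FPKM in MEF, 14.5 in D4_DUX, 15 in D4 and 14.3 in iPSC, and Idh3b at 21.3 FPKM in MEF, 28.5 in D4_DUX, 27.6 in D4 and 34.2 in iPSC. In D4 against MEF all 3 were higher on the log2 scale: Idh3a (0.56, adjusted p = 3.20e-07), Idh3b (0.36, adjusted p = 1.18e-06) and Idh3g (0.48, adjusted p = 1.36e-06). In iPSC, Idh3g was at 45.5, 48.1 and 48.1 FPKM, against 38.4, 39 and 38 in D4 and 28.7, 26.5 and 26.7 in MEF, so that the groups did not overlap. In iPSC against D4, Idh3b (0.30, adjusted p = 1.99e-06) and Idh3g (0.29, adjusted p = 4.89e-05) were higher, while Idh3a was not called (-0.070, adjusted p = 0.137) and was called lower under median-ratio scaling and quantile normalization. In iPSC against MEF the log2 fold changes were 0.49 for Idh3a, 0.66 for Idh3b and 0.77 for Idh3g, all called. None of the 3 was called in D4_DUX against D4.

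The NADP-dependent isocitrate dehydrogenases were lower in every comparison in which they were called. Idh1 encodes the cytosolic and Idh2 the mitochondrial enzyme. Idh1 (ENSMUSG00000025950, chromosome 1, 65158616 to 65186500, minus strand) was at 24.5, 25.7 and 27.6 FPKM in iPSC, against 53.5, 52 and 52.1 in D4 and 59.6, 55.8 and 60.9 in MEF. The 3 groups did not overlap, and iPSC stood lowest, with log2 fold change -1.15, SE 0.045, adjusted p = 3.46e-10 against MEF, the lowest log2 fold change of the 33 genes there, and log2 fold change -0.99, SE 0.045, adjusted p = 1.18e-09 against D4. By ratio of mean FPKM in iPSC over MEF, Me3 (0.062), Pdp1 (0.403) and Pdk2 (0.417) stood below Idh1 (0.441). For Idh1, D4 was below MEF (log2 fold change -0.16, SE 0.045, adjusted p = 0.00953). The difference between D4_DUX and D4 missed the threshold (log2 fold change -0.13, SE 0.045, adjusted p = 0.0505) and passed it in 4 other settings (adjusted p 0.0098 to 0.0434). Idh2 (ENSMUSG00000030541, chromosome 7, 80094846 to 80115392, minus strand) was at 42.1, 43.3 and 41.5 FPKM in D4_DUX, 49.5, 51.4 and 48 in D4 and 40.2, 40.7 and 40.9 in iPSC, against 61.7, 64.7 and 64.1 in MEF. It was lower in D4 against MEF (log2 fold change -0.35, SE 0.032, adjusted p = 2.30e-06) and in D4_DUX against D4 (log2 fold change -0.23, SE 0.032, adjusted p = 3.56e-04). In iPSC it was lower against MEF (log2 fold change -0.63, SE 0.032, adjusted p = 3.80e-09) and against D4 (log2 fold change -0.28, SE 0.032, adjusted p = 5.85e-06). Summed Idh1 and Idh2 FPKM was 122 ± 2.4 in MEF, 90.4 ± 1.45 in D4_DUX, 102 ± 1.8 in D4 and 66.5 ± 1.94 in iPSC, and Idh2 made up 62.1, 61.3 and 59.7% of it in iPSC, against 50.9, 53.7 and 51.3% in MEF (exact two-sided permutation p = 0.1, the smallest possible, and 0.12 adjusted).

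The 2-oxoglutarate dehydrogenase genes moved little. Ogdh, the E1 component, was at 34.9, 34.7 and 34.3 FPKM in D4_DUX, against 39.7, 36.4 and 41.9 in D4. Its libraries did not overlap, with D4_DUX lower (log2 fold change -0.18, SE 0.058, adjusted p = 0.0356), but the call was lost in 8 of 15 settings, among them leaving out D4 replicate 1 or 3 or any D4_DUX replicate, with an adjusted p up to 0.129. Ogdh was not called in D4 against MEF (0.068, adjusted p = 0.337), iPSC against MEF (-0.038, adjusted p = 0.554) or iPSC against D4 (-0.11, adjusted p = 0.11), and its sign turned under quantile normalization in D4 against MEF and without iPSC replicate 1 in iPSC against MEF. Under median-ratio scaling and quantile normalization it was called lower in both iPSC comparisons, and without D4 replicate 2 also in iPSC against D4 (adjusted p = 0.0218). Dlst, the succinyltransferase E2, was at 18.3 ± 0.605 FPKM in MEF, 22.8 ± 0.0758 in D4_DUX, 23.2 ± 0.697 in D4 and 19.5 ± 0.371 in iPSC. It was higher in D4 against MEF (log2 fold change 0.33, SE 0.033, adjusted p = 4.43e-06) and lower in iPSC against D4 (log2 fold change -0.24, SE 0.033, adjusted p = 3.07e-05). The call in iPSC against MEF (log2 fold change 0.089, SE 0.033, adjusted p = 0.0263) turned to called lower under median-ratio scaling and quantile normalization, and was lost without MEF replicate 1 or 3 or iPSC replicate 2, with an adjusted p up to 0.0983.

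Succinyl-CoA synthetase shifted in the makeup of its beta subunit. Suclg1 encodes the shared alpha subunit, Suclg2 the beta subunit of the form that makes GTP, and Sucla2 that of the form that makes ATP. Suclg2 (ENSMUSG00000061838, chromosome 6, 95473009 to 95718800, minus strand) was at 20.7, 21.9 and 22.3 FPKM in iPSC, against 16.8, 15.6 and 15.8 in D4 and 9.29, 9.3 and 9.65 in MEF. The 3 groups stood apart, with log2 fold change 1.12, SE 0.038, adjusted p = 1.10e-10 in iPSC against MEF, log2 fold change 0.71, SE 0.038, adjusted p = 2.01e-08 in D4 against MEF and log2 fold change 0.41, SE 0.038, adjusted p = 1.01e-06 in iPSC against D4. Sucla2 was at 15.5 ± 0.125 FPKM in MEF, 19.3 ± 0.17 in D4_DUX, 19.8 ± 0.336 in D4 and 15.8 ± 0.438 in iPSC, higher in D4 against MEF (log2 fold change 0.33, SE 0.029, adjusted p = 1.31e-06) and lower in iPSC against D4 (log2 fold change -0.31, SE 0.029, adjusted p = 9.97e-07). In iPSC against MEF it was not called (0.025, adjusted p = 0.444), but it was called lower with libraries scaled by median ratio (adjusted p = 6.46e-05) or by quantile (adjusted p = 1.29e-05). Suclg2 made up 56.7, 57.4 and 59.2% of the summed beta subunits in iPSC, against 46.1, 43.7 and 44.7% in D4 and 37.4, 37.7 and 38.2% in MEF. In D4_DUX it made up 44.5, 44.9 and 44.6%, overlapping with D4. The exact two-sided permutation p was 0.1 for iPSC against each group, the smallest possible, and 0.12 adjusted. Suclg1 was at 11.1 FPKM in MEF, 12.9 in D4_DUX, 12.7 in D4 and 11 in iPSC, higher in D4 against MEF (log2 fold change 0.18, adjusted p = 0.00608) and lower in iPSC against D4 (-0.19, adjusted p = 0.00234). It was not called in iPSC against MEF (-0.016) and was called lower there under median-ratio scaling and quantile normalization. None of the 3 genes was called in D4_DUX against D4. Gm15163, near identical to part of Suclg2, was at 0.0838 FPKM in MEF, 0.102 in D4_DUX, 0.188 in D4 and 0.198 in iPSC.

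Fumarase was higher in D4 and iPSC than in MEF, and the cytosolic malate dehydrogenase was lower in iPSC. Fh1, fumarate hydratase, was at 14.4 ± 0.489 FPKM in MEF, 21.9 ± 0.308 in D4_DUX, 23.4 ± 1.61 in D4 and 20.6 ± 0.127 in iPSC, with log2 fold change 0.67, SE 0.044, adjusted p = 1.30e-07 in D4 against MEF, log2 fold change 0.49, SE 0.044, adjusted p = 6.79e-07 in iPSC against MEF and log2 fold change -0.18, SE 0.044, adjusted p = 0.00327 in iPSC against D4. Mdh1, the cytosolic malate dehydrogenase of the malate-aspartate shuttle, was at 29.4, 28.8 and 33.2 FPKM in iPSC, against 51.9, 51.7 and 48.5 in D4 and 42.2, 41.8 and 47.1 in MEF. The iPSC libraries were the lowest (log2 fold change -0.51, SE 0.064, adjusted p = 1.53e-05 against MEF and log2 fold change -0.72, SE 0.064, adjusted p = 6.30e-07 against D4). The higher level in D4 against MEF (log2 fold change 0.21, SE 0.064, adjusted p = 0.0133) was lost under median-ratio scaling, quantile normalization and without MEF replicate 2. Mdh2, the mitochondrial enzyme of the cycle, was at 53.7 ± 0.992 FPKM in MEF, 63.8 ± 1.17 in D4_DUX, 62.5 ± 1.76 in D4 and 64.8 ± 1.75 in iPSC, higher in D4 against MEF (log2 fold change 0.21, SE 0.032, adjusted p = 1.18e-04). Its call in iPSC against MEF (log2 fold change 0.27, SE 0.032, adjusted p = 9.64e-06) was lost under median-ratio scaling (adjusted p = 0.258), and it was not called in iPSC against D4 (0.051, adjusted p = 0.16), but called lower there under median-ratio scaling (adjusted p = 0.0138). In D4_DUX against D4 none of the 3 was called, although Fh1 was called lower without D4 replicate 3 (adjusted p = 0.0206) and under quantile normalization.

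Of the enzymes outside the ring, ATP citrate lyase was lowest at day 4 and the malic enzymes changed their makeup. Acly, which splits exported citrate into acetyl-CoA and oxaloacetate, was at 59 ± 1.95 FPKM in MEF, 45.3 ± 0.681 in D4_DUX, 47.2 ± 2.09 in D4 and 56.1 ± 0.906 in iPSC, lower in D4 against MEF (log2 fold change -0.32, SE 0.037, adjusted p = 1.55e-05) and higher in iPSC against D4 (log2 fold change 0.24, SE 0.037, adjusted p = 6.65e-05). It was not called in iPSC against MEF (log2 fold change -0.072, SE 0.037, adjusted p = 0.0886) and passed the threshold there, as lower, in 4 other settings, among them leaving out MEF replicate 2. Me1, the cytosolic malic enzyme that makes NADPH, was at 16.3, 16.3 and 14.7 FPKM in iPSC, against 36.6, 35.8 and 34.9 in D4 and 22.8, 21.7 and 21.9 in MEF (ENSMUSG00000032418, chromosome 9, 86581371 to 86695953, minus strand). It stood highest at day 4 and lowest in iPSC (log2 fold change -1.13, SE 0.042, adjusted p = 1.96e-10 against D4, log2 fold change -0.47, SE 0.042, adjusted p = 6.56e-07 against MEF), with log2 fold change 0.67, SE 0.042, adjusted p = 7.81e-08 in D4 against MEF. Me2, the mitochondrial enzyme that can use NAD, was at 6.04 ± 0.333 FPKM in MEF, 5.05 ± 0.187 in D4_DUX, 4.73 ± 0.0709 in D4 and 8.85 ± 0.272 in iPSC, highest where Me1 was lowest. It was lower in D4 against MEF (log2 fold change -0.29, SE 0.044, adjusted p = 1.21e-04), higher in iPSC against D4 (log2 fold change 0.78, SE 0.044, adjusted p = 8.94e-09) and against MEF (log2 fold change 0.49, SE 0.044, adjusted p = 7.37e-07). Gm7049 and Gm48795, near identical to parts of Me1, were at 0.981 FPKM in MEF, 0.121 in D4_DUX, 0.125 in D4 and 0.734 in iPSC and at 1.33 FPKM in MEF, 0.199 in D4_DUX, 0.166 in D4 and 1.09 in iPSC, lowest at day 4, where Me1 was highest.

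Me3, the mitochondrial malic enzyme that uses NADP, was at its highest at day 4. Me3 (ENSMUSG00000030621, chromosome 7, 89632392 to 89854359, plus strand) was at 1.58, 1.67 and 1.58 FPKM in D4_DUX, 1.7, 1.8 and 1.65 in D4 and 0.032, 0.0158 and 0.0174 in iPSC, against 0.346, 0.389 and 0.316 in MEF. The iPSC values rest on 11.2, 5.6 and 6.7 recovered fragments, above a floor of 3 fragments (0.00730 to 0.00912 FPKM over the libraries). Since the day 4 libraries alone brought Me3 past the filter, its comparisons of D4 with MEF and with iPSC are given here as levels without a test. The ratio of mean FPKM was 4.89 for D4 over MEF and 0.0127 for iPSC over D4. D4_DUX and D4 overlapped (log2 fold change -0.057, SE 0.044, adjusted p = 0.351). The antisense transcript A230065N10Rik, which shares 569 exonic bases (3.891% of the exon length of Me3), was at 0.606 FPKM in MEF, 3.11 in D4_DUX, 3.29 in D4 and 0.0261 in iPSC, the same order of groups. Fragments of both cannot be told apart without knowing whether strand was used in counting.

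Among the 3 malic enzymes, Me1 made up 65.2, 65.2 and 61.5% of the summed FPKM in iPSC, against 85, 84.7 and 84.4% in D4 and 78.9, 76.2 and 77.8% in MEF. Me2 made up 34.7, 34.8 and 38.4% in iPSC, against 11.1, 11 and 11.6% in D4 and 19.9, 22.5 and 21.1% in MEF. Me3 made up 3.6 ± 0.146% in D4_DUX, 4.07 ± 0.169% in D4 and 0.088 ± 0.0348% in iPSC, against 1.23 ± 0.123% in MEF. The iPSC, D4 and MEF shares of Me1 and of Me2 did not overlap between groups, and each of these comparisons had an exact two-sided permutation p of 0.1, the smallest possible, and 0.12 adjusted. The summed level was 28.5 ± 0.381 in MEF, 44.7 ± 0.726 in D4_DUX, 42.2 ± 0.85 in D4 and 24.6 ± 0.687 in iPSC.

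**Figure D4:**
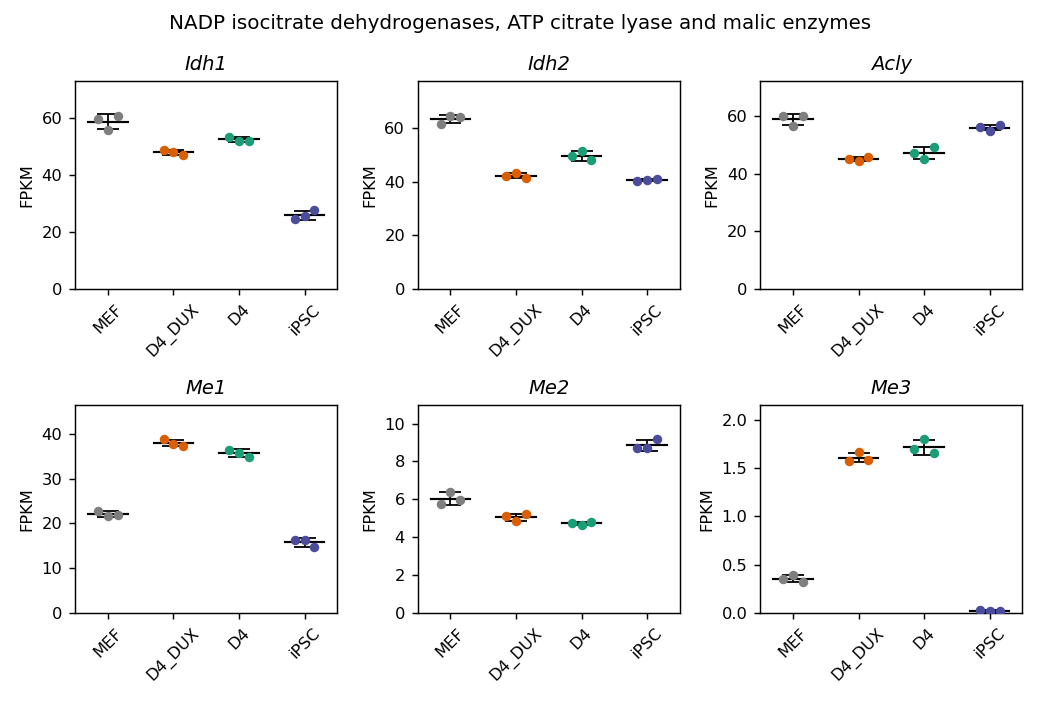
FPKM of the NADP-dependent isocitrate dehydrogenases, Acly and the 3 malic enzymes in each library (points), with the mean and SD of n = 3 per group, each panel starting at 0 on its own scale. Idh1 is lowest in iPSC (25.9 FPKM) and highest in MEF (58.8 FPKM), and Me3 lies above 1 FPKM in D4_DUX and D4 alone.

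Read across the stages and leaving out Me3, 15 of the other 32 genes (46.9%) had their highest mean in 1 of the day 4 groups, beside 33.5% of all genes tested, and 10 (31.2%) in iPSC, beside 47.4%. The lowest mean was in MEF for 14 of the 32 (43.8%), beside 34.1%. This is a description of group means without a test, and the means of neighbouring groups can overlap.

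**Figure D5:**
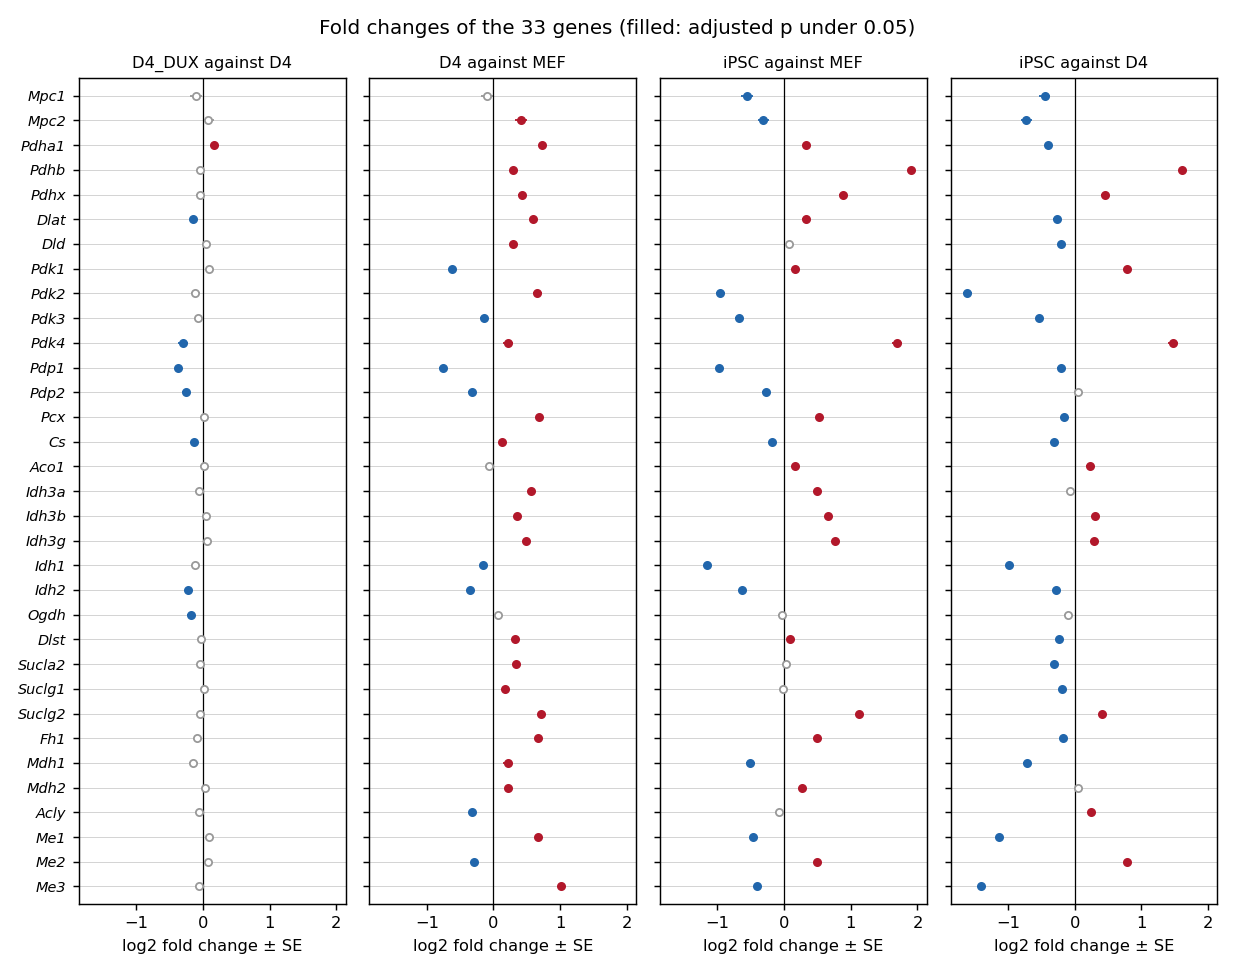
log2 fold change on log2(FPKM + 1) with its SE for each of the 33 genes (rows) in the 4 comparisons (panels), filled where the adjusted p was under 0.05, red for higher and blue for lower. In D4_DUX against D4 the called genes lie between -0.37 and 0.17, and in iPSC against MEF between -1.15 and 1.91. Me3 is drawn with the others, although it passed the filter through the day 4 libraries alone.

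The lactate branch, which competes with the complex for pyruvate, differed in its isozymes. Of 7 listed genes 6 were tested, and in iPSC against MEF 1 was higher and 5 lower, beside Pdhb at 1.91. Ldha, the lactate dehydrogenase subunit of glycolytic tissues, was at 106, 104 and 105 FPKM in iPSC, against 418, 411 and 422 in MEF (log2 fold change -1.98, SE 0.029, adjusted p = 1.55e-13). Ldhb, the subunit of oxidative tissues, was at 92.2, 88 and 84.3 FPKM in iPSC, against 22.5, 23.1 and 23.6 in MEF (log2 fold change 1.89, SE 0.055, adjusted p = 2.76e-11). The ratio of Ldha to Pdhb FPKM was 31.6 ± 1.04 in MEF, 20.9 ± 0.378 in D4_DUX, 18.1 ± 1.21 in D4 and 2.01 ± 0.0942 in iPSC. In D4_DUX against D4, Ldha and Pkm, a pyruvate kinase gene measured here without its isoforms, were higher and Ldhb lower. Ldha was at 333 FPKM in D4_DUX, against 296 in D4 (0.17, adjusted p = 0.00116). Pkm was at 598 FPKM in D4_DUX, against 496 in D4 (0.27, adjusted p = 1.53e-04). Ldhb was at 23 FPKM in D4_DUX, against 32.3 in D4 (-0.47, adjusted p = 8.18e-05). The list held 2 higher and 1 lower there, or 2 and 2 under median-ratio scaling or quantile normalization. In D4 against MEF 1 was higher and 4 lower, and in iPSC against D4 2 were higher and 4 lower.

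Succinate dehydrogenase, the cycle enzyme left out of the 33, was also higher in D4 than in MEF. Of 8 subunit and assembly genes, 6 were higher and 0 lower in D4 against MEF (median log2 fold change 0.35), with Sdha at 66.9 FPKM in D4, against 50.5 in MEF (0.40, adjusted p = 2.90e-07). In iPSC against MEF 6 were higher and 0 lower, but 4 and 1 under median-ratio scaling and 3 and 2 under quantile normalization. The counts were 2 and 4 in iPSC against D4 (2 and 6 and then 1 and 5 under these scalings), and in D4_DUX against D4 1 and 0. Of 13 genes tested for lipoate, the cofactor bound to Dlat and Dlst, 8 were higher and 0 lower in D4 against MEF, and 1 and 1 in D4_DUX against D4 (0 and 1 under median-ratio scaling). In iPSC against MEF 8 were higher and 2 lower, a balance that turned with the scaling: 6 and 4 under median-ratio scaling, 4 and 5 under quantile normalization. They were 5 and 5 in iPSC against D4, but 3 and 8 under either. Nfu1, which passes iron-sulfur clusters to lipoate synthase, was at 21 FPKM in iPSC, against 6.64 in MEF (1.52, adjusted p = 1.29e-10).

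Carriers that link the cycle to the cytosol were split. Of 7, 3 were higher and 3 lower in iPSC against MEF (2 and 4 under quantile normalization), 2 and 3 in iPSC against D4, 3 and 1 in D4 against MEF (3 and 2 under median-ratio scaling), and 4 and 0 in D4_DUX against D4. Slc25a13, the liver-type aspartate-glutamate carrier of the malate-aspartate shuttle, was at 30.7 FPKM in iPSC, against 2.47 in MEF (3.20, adjusted p = 9.31e-12). Slc25a1, the citrate carrier that feeds Acly, was at 27.6 FPKM in iPSC, against 53.6 in MEF (-0.94, adjusted p = 1.19e-09). Of 15 genes of glutamine entry and transamination, 12 were higher and 2 lower in iPSC against MEF, with Got1, the cytosolic aspartate aminotransferase, at 63.4 FPKM in iPSC, against 11.2 in MEF (2.41, adjusted p = 4.41e-13), and 7 and 7 in D4 against MEF. In iPSC against D4 7 were higher and 4 lower (7 and 6 under either scaling), and in D4_DUX against D4 2 and 4 (1 and 5 under median-ratio scaling, 1 and 4 under quantile normalization).

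Of 11 genes of branched-chain and related 2-oxoacid dehydrogenases, some of which use Dld, 7 were higher and 2 lower in iPSC against MEF and also in iPSC against D4, 5 and 3 in D4 against MEF, and 0 and 2 in D4_DUX against D4. Under quantile normalization the iPSC counts were 7 and 4 against MEF and 6 and 4 against D4. Dbt, the E2 component of the branched-chain enzyme, was at 13.9 FPKM in iPSC, against 4.61 in MEF (1.41, adjusted p = 1.76e-10). Of 15 genes that use acetyl-CoA for lipid synthesis or regulate that use, 2 were higher and 13 lower in iPSC against MEF, 3 and 12 in iPSC against D4, 3 and 10 in D4 against MEF (1 and 10 under either scaling), and 1 and 9 in D4_DUX against D4. Scd2, a fatty acid desaturase, was at 39.7 FPKM in iPSC, against 333 in MEF (-3.04, adjusted p = 1.58e-13). Beside it Acly was not called in that comparison and Slc25a1 was lower. No list was tested as a set, and the share called in each comparison stands beside the background given above.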

How the data were processed

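Polyadenylated RNA of 12 libraries in 4 groups of 3 was sequenced from a stranded kit, per the labels' protocols. The authors deposited 1 table of FPKM per gene, and the submitters' processing notes name the build mm10. The aligner, the counting program, the annotation, and the use of strand in counting were not named in the sources used here. Depth was taken as the value at which most low FPKM values fell on whole multiples of a step. At that depth 45.0 to 47.1% of low values per library did so, and 72.8 to 74.3% with multiples of a halved step allowed. Depths, floors and recovered fragments are therefore estimates. Floors in fragments cover counting error only.

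IDs were matched to GENCODE M21 (40225 of 40384). Values were tested as log2(FPKM + 1) with limma 3.58.1 (R 4.3.3), 1 fit over all 4 groups and the 17114 genes at 1 FPKM or more in at least 3 libraries, and Benjamini-Hochberg adjusted p under 0.05. The script was tested on simulated data. Shares were compared by an exact two-sided permutation test (scipy 1.17.1), and near copies were searched with blastn 2.17.0. The genes given per library are the 3 called genes with the highest and the 3 with the lowest log2 fold change in each comparison. Of each related list the called genes with the smallest adjusted p were eligible to be named. The genes, the lists and the rules were chosen with earlier results of these data known. Alternatives were other pseudocounts, filters, scalings, fits and libraries left out.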

Additional observations from a re-analysis of the deposited data

How the results depend on the processing

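Each comparison was repeated in 15 alternative settings. Of the calls, 6 of 8 in D4_DUX against D4, 26 of 30 in D4 against MEF, 23 of 28 in iPSC against MEF and 27 of 29 in iPSC against D4 kept direction and threshold in every setting that tested them. That was 15 settings, or 14 for Pdp1, Pdp2, Mpc2 and Me3, which a minimum of 5 FPKM left out. A fit on the 2 groups alone called 2 genes higher in D4_DUX against D4, Me1 being the second (adjusted p = 0.0472). Leaving out single libraries gave 1 to 1 genes higher and 5 to 7 lower in D4_DUX against D4, 20 to 22 and 7 to 8 in D4 against MEF, 15 to 16 and 12 to 13 in iPSC against MEF, and 10 to 10 and 18 to 20 in iPSC against D4. Same-numbered libraries did not deviate together (correlations -0.1461 to 0.0624). These correlations cannot show whether such libraries shared a culture or preparation, and the labels state no pairing. With the replicate number as a block, 1 and 5 genes were called higher and lower in D4_DUX against D4, and 22 and 8 in D4 against MEF. In iPSC they were 16 and 13 against MEF and 10 and 19 against D4.

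Signs turned for small differences. In D4_DUX against D4 the log2 fold change was -0.015 for Pcx, -0.011 for Aco1 and -0.0064 for Suclg1 under median-ratio scaling, and -0.00066 for Dld, -0.029 for Pcx, -0.033 for Aco1, -0.0013 for Idh3b and -0.027 for Suclg1 under quantile normalization. With single libraries left out it ranged from -0.074 to 0.012 for Pdhb, -0.078 to 0.0096 for Pdhx, -0.036 to 0.043 for Pcx, -0.024 to 0.061 for Aco1 and -0.023 to 0.059 for Suclg1. The sign turned without D4 replicate 2 for the first 4, without D4_DUX replicate 1 for Pcx and Aco1, and without D4 replicate 3 for Suclg1. In D4 against MEF it was -0.032 for Ogdh under quantile normalization. In iPSC against MEF, median-ratio scaling and quantile normalization gave -0.14 and -0.15 for Dld, -0.050 and -0.094 for Pdk1, -0.047 and -0.091 for Aco1, -0.13 and -0.14 for Dlst, and -0.19 and -0.23 for Sucla2. Ogdh ranged from -0.072 to 0.023 (without iPSC replicate 1) and Suclg1 from -0.033 to 0.0076 (without MEF replicate 3). In iPSC against D4, Pdp2 was -0.042 and -0.23 under these scalings and Mdh2 -0.10 under median-ratio scaling. The cause was not tested. With median-ratio scaling and 0.1 FPKM added, shares moved to 5.14% for Pdk4 in MEF, 84.4% for Me1 in D4, and 3.8% in D4_DUX, 4.27% in D4, 0.523% in iPSC and 1.54% in MEF for Me3, all other shares moving by less than their SD. A minimum of 5 FPKM left 29 of the 33 genes tested.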

Other observations

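Lists that regulate or neighbour the pyruvate and cycle genes were counted in the same fit, with no test of a list. Of all genes tested, 51% were called higher and 31.2% lower in iPSC against MEF, and 48.5% and 33.9% in iPSC against D4. These shares were 34.2% and 27.6% in D4 against MEF, and 20.1% and 15.4% in D4_DUX against D4. Of 16 targets of hypoxia-inducible factor, 13 were lower and 2 higher in D4 against MEF, beside Pdk1 at -0.62, and 14 were lower and 1 higher in iPSC against MEF, where Pdk1 was 0.16 with a sign that turned under median-ratio scaling and quantile normalization. In iPSC against D4 12 were lower and 3 higher, and in D4_DUX against D4 6 and 2. P4ha1, a collagen prolyl hydroxylase subunit, was at 16.8 FPKM in iPSC, against 129 in MEF (-2.87, adjusted p = 7.39e-14). Of 17 genes tested among PPAR targets and fatty acid oxidation, 10 were higher and 4 lower in iPSC against MEF (9 and 6 under median-ratio scaling or quantile normalization) and 7 and 6 in D4 against MEF. Of the same genes 8 were higher and 4 lower in iPSC against D4, but 8 and 7 under median-ratio scaling and 8 and 9 under quantile normalization. In D4_DUX against D4 6 were higher and 4 lower, a balance that turned to 4 and 5 under median-ratio scaling and 4 and 7 under quantile normalization. Angptl4, a secreted lipase inhibitor and PPAR target, was at 61.7 FPKM in iPSC, against 8.24 in D4 (2.76, adjusted p = 6.14e-12), beside Pdk4 at 1.47. In D4_DUX against D4 Angptl4 was at 12.3 FPKM in D4_DUX, against 8.24 in D4 (0.52, adjusted p = 1.78e-04), while Pdk4 was -0.30.

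Of 14 genes of NADPH supply and NRF2 response, 11 were higher and 2 lower in iPSC against MEF, 11 and 3 in iPSC against D4, 4 and 6 in D4 against MEF, and 9 and 1 in D4_DUX against D4. Pgd, of the pentose phosphate path, was at 37.2 FPKM in D4_DUX, against 28.9 in D4 (0.35, adjusted p = 2.12e-05), beside Idh2 at -0.23. Mthfd2, a mitochondrial folate enzyme, was at 76.3 FPKM in iPSC, against 21.6 in MEF (1.77, adjusted p = 1.66e-11). Of 11 regulators of mitochondrial biogenesis tested, 11 were higher in iPSC against MEF (9 under median-ratio scaling or quantile normalization). In iPSC against D4 9 were higher and 1 lower (8 and 2 under quantile normalization). The counts were 3 and 4 in D4 against MEF, and 6 and 1 in D4_DUX against D4. Tfam, the packaging protein of mitochondrial DNA, was at 14.6 FPKM in iPSC, against 5.75 in MEF (1.21, adjusted p = 8.56e-10). The lists were put together with earlier results of these data known.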
